A study of Caenorhabditis elegans with 2 samples.

Results

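The 44 genes described here build and drive the cell cycle of Caenorhabditis elegans: 7 cyclins, 4 cyclin-dependent kinases, 4 Cdc25 phosphatases, 14 genes for origin recognition and the replicative helicase, 3 for the replication clamp and nucleotide supply, 5 CDK inhibitors and Rb/E2F factors, and 7 checkpoint and mitosis genes. They are a list of names, with no peak value in its rule, but it was drawn up with earlier results of these data known, so the shares below are a description. They were taken from the 19973 protein-coding genes of the nuclear chromosomes in the Ensembl annotation of WBcel235 (the build ce11), and all 44 were found there. Binding of ZIP-8, a transcription factor of the basic leucine zipper (bZIP) class, had been profiled by ChIP-seq in 2 biological replicates that form 1 group. Both were whole embryos of mixed stages and pooled sexes of strain OP327, with the genotype unc-119(ed3) III; wgIs327, in which ZIP-8 fused to eGFP is made from an integrated transgene. The description names eGFP-zip-8 as the target of the precipitation, whereas the antibody field names zip-8 alone. All cell types of the embryo were pooled, no untagged strain or other condition was analysed here, and the labels do not say whether the replicates came from separate cultures. So no condition could be compared, and the results are counts, ranks and sequences set beside the same measures over all genes or all peaks, with no test.

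Cyclins bind and activate cyclin-dependent kinases. Cyclin D with CDK-4 and cyclin E with CDK-2 drive entry into S phase, and cyclins A and B with CDK-1 drive mitosis. Cdc25 phosphatases remove the inhibitory phosphates that Wee1-type kinases place on CDKs, and CKI proteins block the kinases directly. Origins of replication are marked by the origin recognition complex, loaded with the Mcm helicase by CDC-6 and CDT-1, and fired once the GINS complex (SLD-5, PSF-1, PSF-2 and PSF-3) has joined. In the early embryo cells cycle rapidly between S phase and mitosis, and gap phases and cell cycle exit come later. bZIP factors bind DNA as dimers, and the sequences of 8 bases best known for them include the CRE palindrome TGACGTCA of CREB and ATF factors and the C/EBP palindrome TTGCGCAA.

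A gene was linked to a peak when the summit lay from 2000 bp upstream of its start to its end. Of the deposited lists, the optimal list holds the 2634 peaks kept by the authors' test of reproducibility, and these were identical to the 2634 peaks of highest signal among the 30000 of the pooled list. The signal is the authors' enrichment value for a peak, on a scale that was not stated in the sources used here. It is measured over all cells at once, so strong binding in few cells and weak binding in many cannot be told apart. In the optimal list the signal ran from 21.4 to 1224 with a median of 38.4. Of its peaks, 2610 lay on nuclear chromosomes.

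The optimal ZIP-8 peaks lay at cyclin, phosphatase, replication and CDK inhibitor genes and at no gene of the kinase or checkpoint and mitosis roles. An optimal peak was linked to 11 of the 44 genes (25%, exact Clopper-Pearson 95% interval 13.2 to 40.3, which covers counting error only), and the share over all protein-coding genes was 11.6%. The 11 genes were the cyclin genes cya-1, cyd-1 and cye-1, the phosphatase gene cdc-25.2, the replication genes orc-1, mcm-2, mcm-3 and sld-5, both ribonucleotide reductase genes rnr-1 and rnr-2, and the CDK inhibitor gene cki-2. With so few genes in a role, the counts of 0 of 4 kinase genes and 0 of 7 checkpoint and mitosis genes allow shares of up to 60.2% and 41% by the same interval, so the roles could not be told apart. The genes linked were 3 of 7 cyclins (42.9%), 1 of 4 phosphatases (25%), 4 of 14 origin and helicase genes (28.6%), 2 of 3 clamp and nucleotide genes (66.7%) and 1 of 5 CDK inhibitor and Rb/E2F genes (20%).

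**Figure D1:**
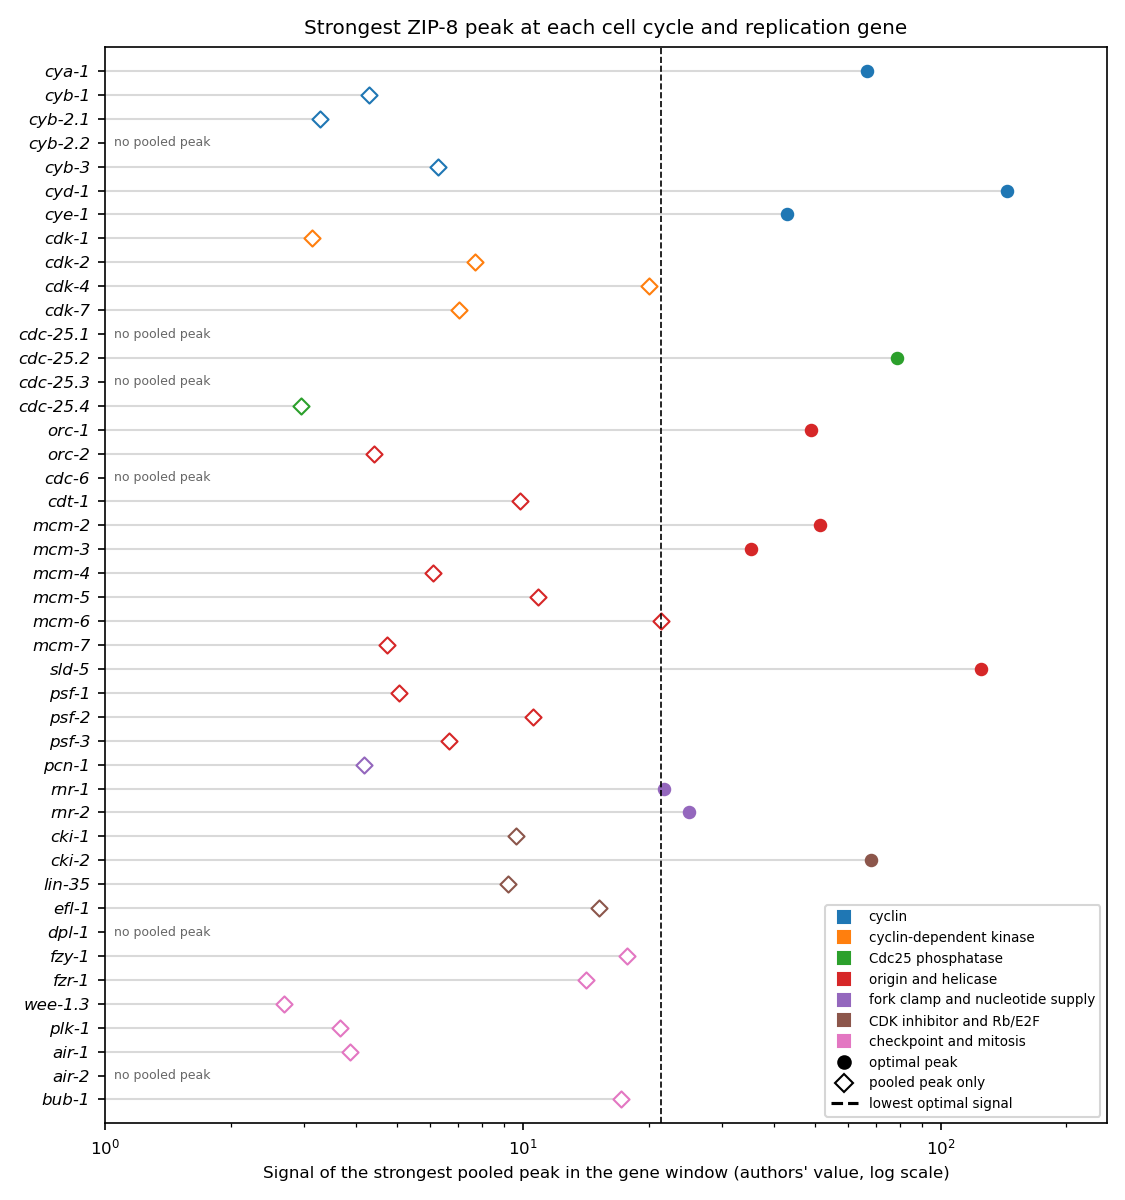
Signal of the strongest pooled peak (x axis, the authors' value on a log scale) in the window of each of the 44 genes, coloured by role. Filled circles are peaks of the optimal list, open diamonds are pooled peaks below it, and the dashed line is the lowest optimal signal of 21.4. The 11 filled circles reach from 21.8 at rnr-1 to 144 at cyd-1, and 6 genes have no pooled peak.

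The 11 genes held 20 optimal peaks, and 10 of these came from a pair of long genes, cyd-1 and cdc-25.2, with 5 each. Windows of the 44 genes were somewhat longer (median 4.81 kb) than those of all genes (4.03 kb). If each gene had the share of all genes of its length class, 5.52 of the 44 would carry an optimal peak (12.5%). In windows of 4 to 5 kb, 4 of 11 members had one against 10.6% of all such genes, whereas in windows under 4 kb it was 1 of 14 against 6.68%. Per 100 kb of window there were 8.09 optimal peaks at members, and 4.71 at members without cyd-1 and cdc-25.2. Over all protein-coding genes there were 2.55 links per 100 kb. There a peak, like its stretch of window, counts once for each gene whose window holds it.

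**Figure D2:**
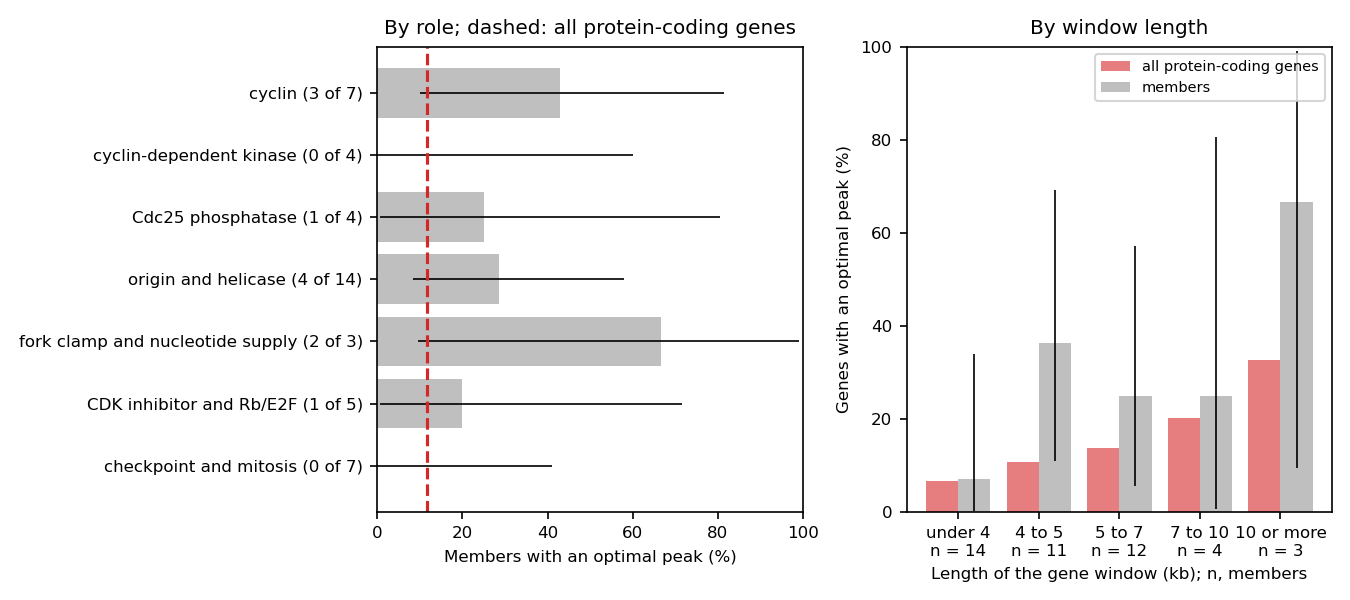
Left, percent of members with an optimal peak in each role (bars, with exact 95% intervals) and the share of all protein-coding genes (dashed line, 11.6%). Right, percent of genes with an optimal peak by length of the gene window in kb, for all protein-coding genes and for members with exact 95% intervals. In windows of 4 to 5 kb members stand at 36.4% and all genes at 10.6%, and the intervals are wide in every class.

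Among the cyclins, cyd-1, which encodes cyclin D, carried the strongest peak of all 44 genes. Its summit lay 1789 bp upstream of the start with a signal of 144, rank 111 of the optimal list. It ranked 199 in the list of replicate 1, with a signal of 78, and 43 in the list of replicate 2, with a signal of 60.6. Both replicates therefore placed this peak among their strongest. The summits of the replicates lay 4 and 2 bp from the pooled one, and TGACGCAA, a hybrid of the C/EBP and CRE sites, was centred 13 bp from it. The other 4 optimal peaks of cyd-1 were intronic and none held a full site, a term used here for any of 6 bZIP sequences of 8 bases (TGACGTCA, TGACGTAA, TTGCGCAA, TTACGTAA, TGATGCAA and TGACGCAA) within 50 bp of the summit. They lay 4129 and 5285 bp downstream of the start in intron 2, which is 6014 bp long, and 10356 and 10819 bp downstream in intron 5, with signals of 24.5, 63.8, 26.7 and 29.7. The one at 5285 bp was unequal between replicates: it ranked 42 in replicate 2 with a signal of 61.2, and in replicate 1 the overlapping peak ranked 3447 with a signal of 10.3 and its summit 184 bp away. The pair in intron 5 lay 2724 and 3187 bp downstream of an internal start of cyd-1, where a shorter transcript begins. Among gene starts, taken at the outer end of each gene, the nearest to that pair was hphd-1, 5624 and 5161 bp away.

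cya-1, the gene for cyclin A, had a peak 678 bp upstream of its start with a signal of 66.5 (rank 523), and it ranked 880 in replicate 1 and 151 in replicate 2. It held no full site, but 2 copies of the shorter core ACGCAA, the last 6 bases of TGACGCAA. The peak of cye-1, the gene for cyclin E, lay 427 bp upstream with a signal of 42.9, and was closer to the start of its divergent neighbour pqn-21, 221 bp away. It ranked 2419 in replicate 1 and 409 in replicate 2. The cyclin B genes had no optimal peak. Their windows were all under 4 kb, where 6.68% of all protein-coding genes had one, so this does not set them apart. cyb-1, cyb-2.1 and cyb-3 had pooled peaks alone, with best signals of 4.28, 3.28 and 6.27, and cyb-2.2 had none. Sequences reaching 50 bp to each side of 3 cyclin summits are shown because they hold the strongest peak of the 44 genes and the clearest cases without a full site. They are on ce11. Capitals mark the full site in the first and the core ACGCAA in the others.
cyd-1, chrII:12978752-12978852, plus strand: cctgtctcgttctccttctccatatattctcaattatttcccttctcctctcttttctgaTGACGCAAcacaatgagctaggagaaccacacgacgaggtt
cyd-1, chrII:12985826-12985926, plus strand: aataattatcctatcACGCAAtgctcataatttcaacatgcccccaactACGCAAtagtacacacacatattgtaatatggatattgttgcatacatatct
cya-1, chrIII:9109900-9110000, plus strand: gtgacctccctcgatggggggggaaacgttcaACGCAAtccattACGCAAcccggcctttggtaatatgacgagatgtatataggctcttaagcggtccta

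The kinase genes had peaks in the pooled list alone. Over all protein-coding genes with a pooled peak, the median best signal was 7. cdk-4, the partner of cyclin D, came closest to the optimal list with an intronic peak 453 bp downstream of its start, signal 20.1 and rank 2797. That peak ranked 7001 in replicate 1 and 1102 in replicate 2. The best signals were 7.69 at cdk-2, 7.02 at cdk-7, the CDK-activating kinase gene, and 3.14 at cdk-1, the mitotic kinase gene.

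Of the Cdc25 genes, cdc-25.2 was the only one with an optimal peak. Its window was 20457 bp long, and 32.6% of all genes with windows of 10 kb or more had one. The other Cdc25 windows were 3212 to 4537 bp long. Shares of all genes were 6.68% under 4 kb and 10.6% at 4 to 5 kb, so their lack of one does not set them apart. All 5 peaks of cdc-25.2 were intronic. 3 lay in the first intron of 10579 bp, at 6457, 7716 and 9807 bp from the start, and 2 in the second intron of 4975 bp, at 11702 and 14280 bp. Their signals were 33.6, 41.5, 73.6, 78.5 and 32.9 in that order, so the strongest pair lay on either side of exon 2, where a further transcript of the gene begins. The summit at 9807 bp was 808 bp upstream of that internal start and the summit at 11702 bp was 1087 bp downstream of it. The strongest peak ranked 733 in replicate 1 and 117 in replicate 2, and the one at 9807 bp ranked 514 and 141. For the last 3 of the 5, the nearest annotated gene start was not that of cdc-25.2 but that of F16B4.7, at least 4355 bp away. The peak at 14280 bp ranked 1202 in replicate 1 and had no overlapping peak in replicate 2.

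All 5 peaks of cdc-25.2 held the core ACGCAA within 50 bp of the summit, against 25.5% of all optimal peaks. Among all optimal peaks without a full site the share was 58.5%. The core was chosen after these sequences were seen, so its recurrence here is a description. Of the 5 peaks, 2 also held TGATGCAA, known as a composite C/EBP and ATF site, in the other orientation. At the strongest peak the core occurred once on each strand. cdc-25.1, which acts in the germline and the early embryo, and cdc-25.3 had no pooled peak, and cdc-25.4 had one of signal 2.94. Genes with 5 or more optimal peaks were rare: cdc-25.2 and cyd-1 were 2 of only 7 among 19973 (0.035%), the others being cnt-2, egl-5, lido-8, shc-2 and ten-1. Of the 1510 genes with windows of 10 kb or more, 5 reached that number (0.331%). The sequences at 3 of the cdc-25.2 summits are shown because the core recurs at every one of its peaks. Capitals mark the core, read on either strand.
cdc-25.2, chrV:1573483-1573583, plus strand: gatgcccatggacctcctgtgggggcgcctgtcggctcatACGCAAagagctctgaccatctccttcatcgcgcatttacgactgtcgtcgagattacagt
cdc-25.2, chrV:1576833-1576933, plus strand: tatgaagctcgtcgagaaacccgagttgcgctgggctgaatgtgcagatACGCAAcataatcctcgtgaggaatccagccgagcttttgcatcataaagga
cdc-25.2, chrV:1578728-1578828, plus strand: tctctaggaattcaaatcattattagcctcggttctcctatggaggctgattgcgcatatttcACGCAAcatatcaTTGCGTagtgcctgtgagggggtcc

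**Figure D3:**
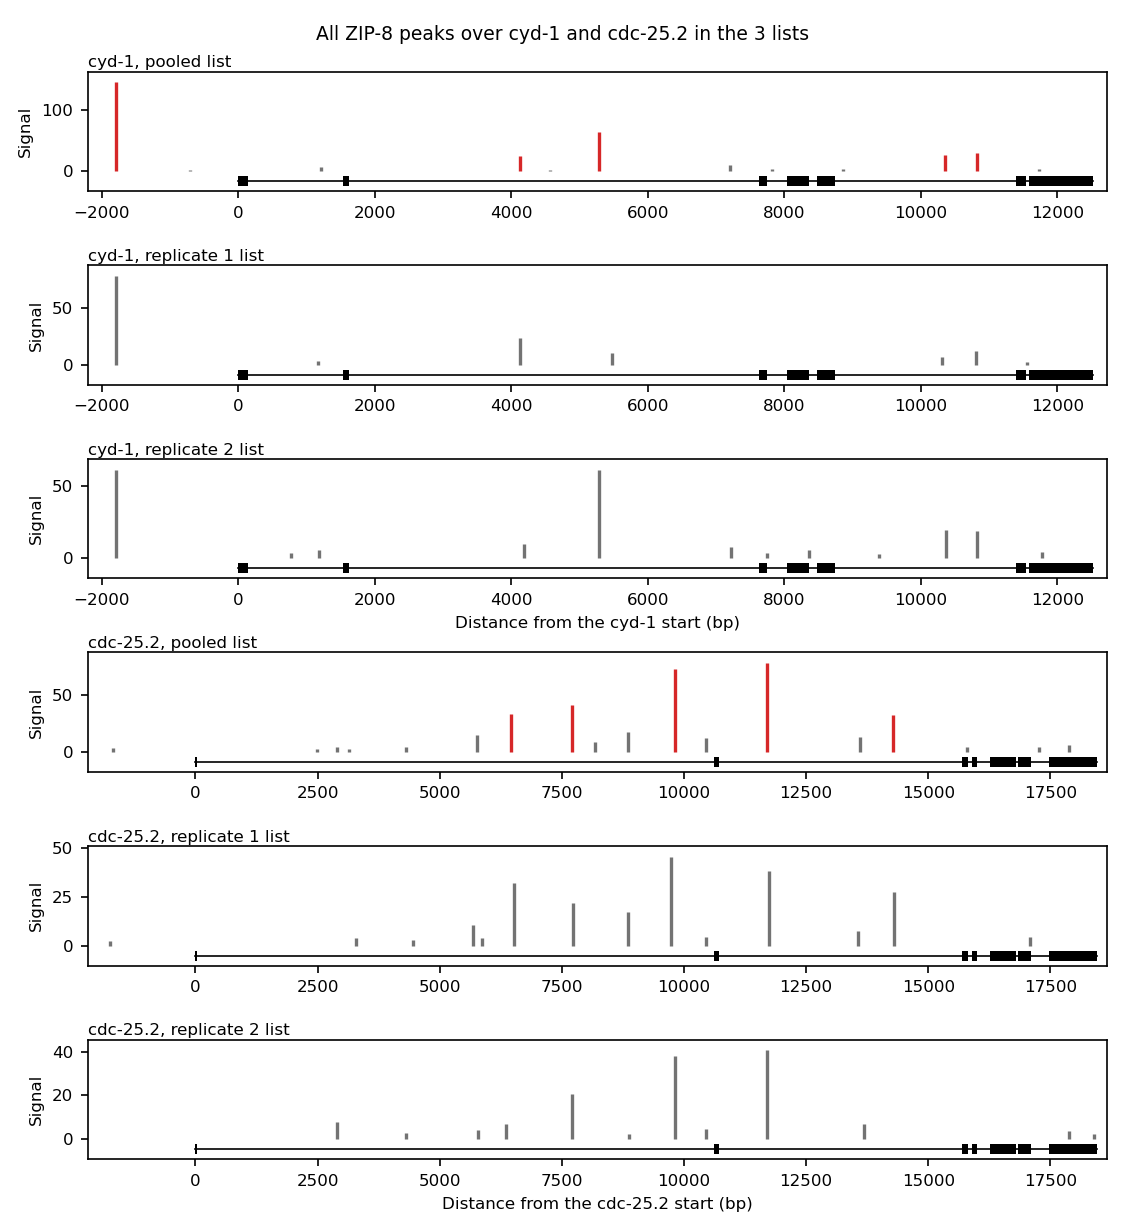
Signal of every peak (y axis, the authors' value, each list on its own scale) against distance from the gene start in bp, over cyd-1 and cdc-25.2, in the pooled list and the list of each replicate; red lines are optimal peaks and black boxes are exons. The peak upstream of cyd-1 stands highest in the pooled list and in replicate 1, whereas in replicate 2 the intronic peak 5285 bp downstream matches it. At cdc-25.2 the tall lines fall in the first 2 introns in all 3 lists.

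Among the genes of origin licensing and the helicase, the strongest peak lay in sld-5, which encodes a GINS subunit. Its summit was in the last of 3 coding exons, 2314 bp downstream of the gene start, with a signal of 125 and rank 144. It ranked 165 in replicate 1 and 108 in replicate 2, so the replicates placed it alike. The summit was 64 bp downstream of the start of a short annotated transcript of sld-5, and among gene starts the nearest was that of Y113G7B.15, 1588 bp away. The CRE palindrome occurred on both sides of it, with centres 10 and 13 bp away, and TTACGCAA, a form of the core extended to 8 bases, lay between them on the minus strand.

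mcm-2 and mcm-3, which encode subunits of the Mcm helicase, had peaks close to their starts. The mcm-2 summit lay 312 bp upstream with a signal of 51.4, ranked 626 in replicate 1 and 806 in replicate 2, and had a CRE palindrome 35 bp away. The mcm-3 summit lay 173 bp upstream with a signal of 35.1, ranked 2075 in replicate 1 and 809 in replicate 2, and had TGACGCAA centred 6 bp away. It was nearer to C25D7.15, whose start is 36 bp from the summit on the other strand. orc-1, the gene for the largest subunit of the origin recognition complex, was linked to a peak of signal 48.9 lying 1423 bp upstream, with the C/EBP palindrome 46 bp from the summit. That summit lay in an intron of dhs-11, 1159 bp from the dhs-11 start, so its assignment to orc-1 rests on the window of 2000 bp. It ranked 1015 in replicate 1 and 644 in replicate 2.

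The other 10 genes of this role had no optimal peak. mcm-6 fell just below the list with a signal of 21.4 and rank 2641, against a lowest optimal signal of 21.44 and a next pooled one of 21.43. Its summit lay 1114 bp upstream and had a CRE palindrome 8 bp away. The best signals were 10.9 at mcm-5, 10.6 at psf-2, 9.84 at cdt-1, 6.67 at psf-3, 6.09 at mcm-4, 5.07 at psf-1, 4.74 at mcm-7 and 4.4 at orc-2, and cdc-6 had no pooled peak. Subunits of one complex therefore differed widely in signal, in GINS from 125 at sld-5 to 5.07 at psf-1. The 4 sequences below are the optimal peaks of this role, each with a full site, in capitals.
sld-5, chrV:20235381-20235481, plus strand: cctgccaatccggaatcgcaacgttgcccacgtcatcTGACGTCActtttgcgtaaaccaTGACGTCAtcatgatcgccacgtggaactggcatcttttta
mcm-2, chrII:12006887-12006987, plus strand: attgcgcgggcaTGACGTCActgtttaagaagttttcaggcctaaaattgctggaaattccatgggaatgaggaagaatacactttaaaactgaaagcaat
mcm-3, chrV:15059722-15059822, plus strand: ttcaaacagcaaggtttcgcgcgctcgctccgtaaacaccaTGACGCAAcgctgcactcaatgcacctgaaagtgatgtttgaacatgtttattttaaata
orc-1, chrIII:10641656-10641756, plus strand: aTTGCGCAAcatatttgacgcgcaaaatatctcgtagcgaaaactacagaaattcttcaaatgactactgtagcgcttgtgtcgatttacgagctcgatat

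Ribonucleotide reductase makes the deoxynucleotides for replication, and both of its genes here had optimal peaks near the bottom of the list. rnr-2, for the small subunit, had a peak 299 bp upstream with a signal of 25 (rank 2224) and TGATGCAA 29 bp from the summit. Its support came almost wholly from replicate 2, where it ranked 397 with a signal of 23.2, against rank 16485 and a signal of 2.92 in replicate 1. rnr-1, for the large subunit, had a peak 1417 bp upstream with a signal of 21.8 (rank 2569), in an intron of T23G5.3 and 1058 bp from the start of that gene. It ranked 2203 in replicate 1, had no overlapping peak in replicate 2 and held no full site. Each reductase gene thus rested mainly on 1 replicate. pcn-1, which encodes the sliding clamp PCNA, had a best signal of 4.17.

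cki-2, for a CDK inhibitor of the Cip/Kip family, had an optimal peak on each side of its start. The upstream summit, at 829 bp with a signal of 59.8, had TGACGTAA centred 1 bp away and lay over the noncoding RNA gene T05A6.19. It ranked 1118 in replicate 1 and 175 in replicate 2. The other summit lay 3050 bp downstream in an intron, with a signal of 68 and TGACGCAA 22 bp away, and ranked 561 in replicate 1 and 630 in replicate 2. The nearest start of an annotated cki-2 transcript was 2859 bp from it, and the start of irld-47 was 3005 bp away. The related gene cki-1 lies upstream of cki-2 on the same strand, and 4393 bp separate the end of one from the start of the other. The upstream cki-2 summit lay 3565 bp past the end of cki-1, outside the cki-1 window, whose best pooled peak had a signal of 9.63. The best signals were 15.2 at efl-1, an E2F gene, and 9.22 at lin-35, the Rb gene, and dpl-1, the gene for the DP partner of E2F, had no pooled peak. The summits of cki-2 and rnr-2 are shown for their full sites, in capitals.
cki-2, chrII:7815620-7815720, plus strand: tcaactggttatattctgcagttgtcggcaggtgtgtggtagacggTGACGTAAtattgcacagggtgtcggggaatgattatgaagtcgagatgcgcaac
cki-2, chrII:7819499-7819599, plus strand: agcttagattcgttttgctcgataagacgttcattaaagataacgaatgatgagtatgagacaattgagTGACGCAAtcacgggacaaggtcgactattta
rnr-2, chrIII:4095170-4095270, plus strand: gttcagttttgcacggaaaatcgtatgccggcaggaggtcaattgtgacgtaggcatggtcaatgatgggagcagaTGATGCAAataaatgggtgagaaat

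The checkpoint and mitosis genes had no optimal peak, and their best pooled signals ranged from 2.69 to 17.8. fzy-1, the Cdc20 gene, had a peak of 17.8 in a coding exon, and bub-1, a spindle checkpoint kinase gene, had one of 17.2 lying 190 bp upstream. Both held a CRE palindrome, 15 and 38 bp from the summit. The fzy-1 peak ranked 2506 in replicate 1 and was absent from replicate 2, whereas the bub-1 peak ranked 3496 and 3432. fzr-1, the Cdh1 gene, had a signal of 14.2 with no full site. wee-1.3, the Wee1-type kinase gene, plk-1, the Polo kinase gene, and air-1, the Aurora A gene, had 2.69, 3.66 and 3.86, and air-2, the Aurora B gene, had no pooled peak.

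**Figure D4:**
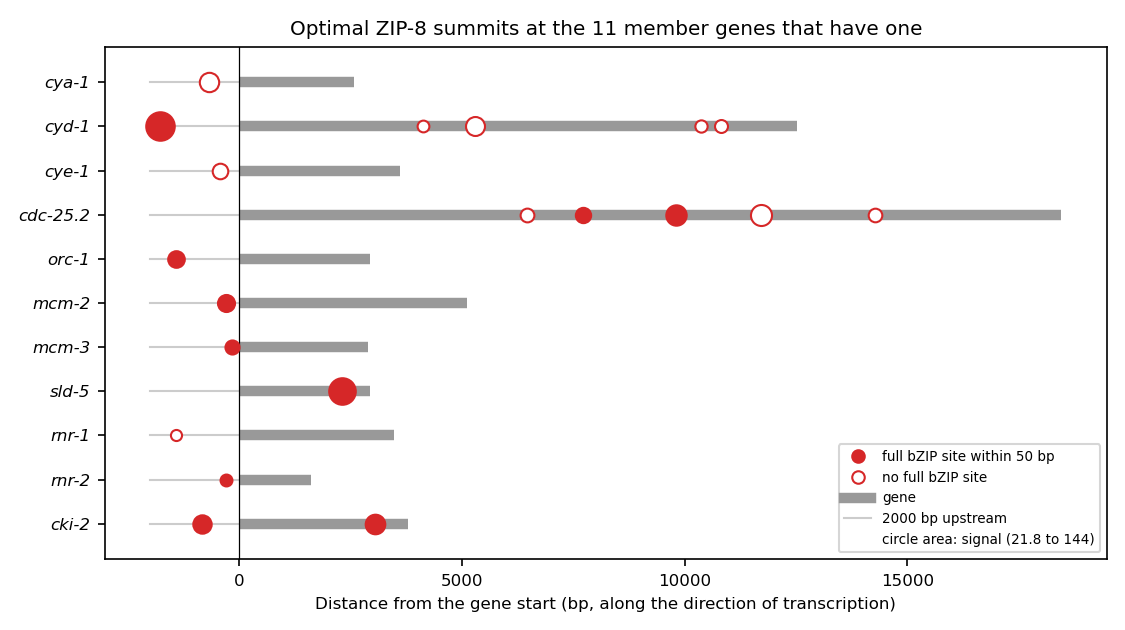
Position of the 20 optimal summits along the 11 genes that have one (x axis, distance from the gene start in bp, in the direction of transcription). Grey bars are genes, thin lines the 2000 bp upstream, circle area is the signal (21.8 to 144) and filled circles hold a full bZIP site within 50 bp. All upstream summits of the replication genes other than rnr-1 are filled, whereas 7 of the 9 intronic summits of cyd-1 and cdc-25.2 are open.

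Over the whole pooled list, 38 of the 44 genes had a peak (86.4%, interval 72.6 to 94.8) against 68.2% of all protein-coding genes, and 31.4 (71.4%) would have one at the shares of their length classes. The 6 genes without one were cyb-2.2, cdc-25.1, cdc-25.3, cdc-6, dpl-1 and air-2. The 27 genes with pooled peaks alone had best signals from 2.69 to 21.4 with a median of 6.67, and 19 of them were below 10. Genes with optimal peaks included, the median best signal was 10.2 over the 38 members and 7 over the 13625 protein-coding genes with a pooled peak. Of the 103 lower peaks linked to members, 17.5% were found in both replicates and 2.91% had a full site, against 9.08% and 8.9% of the 22799 lower peaks at protein-coding genes.

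The count of genes depended on how a peak was assigned. With summits upstream of the start alone it was 9 (20.5% against 5.49% of all genes), since cdc-25.2 and sld-5 dropped out. With promoters of any annotated transcript, from 1000 bp upstream to 200 bp downstream, it was 8 (18.2% against 4.35%), without cyd-1, orc-1 and rnr-1. With each summit given to the gene with the nearest start alone it was 6 (13.6%, interval 5.17 to 27.4, against 8.36%), and cye-1, orc-1, mcm-3, sld-5 and rnr-1 were lost. With peaks at or above the median signal it was 8 (18.2% against 6.03%). The share at members was above that of all genes under each rule, and nearest to it under the last but one.

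The replicates differed in their support. Of the 20 member peaks, 18 (90%) overlapped a peak in both replicate lists by at least 1 bp, against 81% of all optimal nuclear peaks. The list of replicate 1 held 22803 peaks and that of replicate 2 held 12222. The median ranks that follow cover only peaks with an overlapping peak in the list of that replicate. In replicate 2 the median was 444 for member peaks and 1234 for optimal peaks. In replicate 1 it was 1160 and 1306, so member peaks stood higher in replicate 2. Within the top 2634 of replicate 2 were 90% of member peaks and 60% of all optimal peaks, and in replicate 1 these were 80% and 85.5%. The Spearman correlation of the ranks was 0.20 over the 18 member peaks and 0.35 over 2113 optimal peaks, given as a description because all came from the same pair of libraries and the optimal list was chosen with them.

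When the top 2634 peaks of one replicate took the place of the optimal list, 12 genes were linked with replicate 1 and 16 with replicate 2, each against 11.7% of all protein-coding genes. In replicate 1 efl-1 and fzy-1 were gained and rnr-2 was lost. In replicate 2 cdk-4, mcm-6, psf-2, cki-1, efl-1 and fzr-1 were gained and rnr-1 was lost. So 9 genes were linked in all 3 lists.

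**Figure D5:**
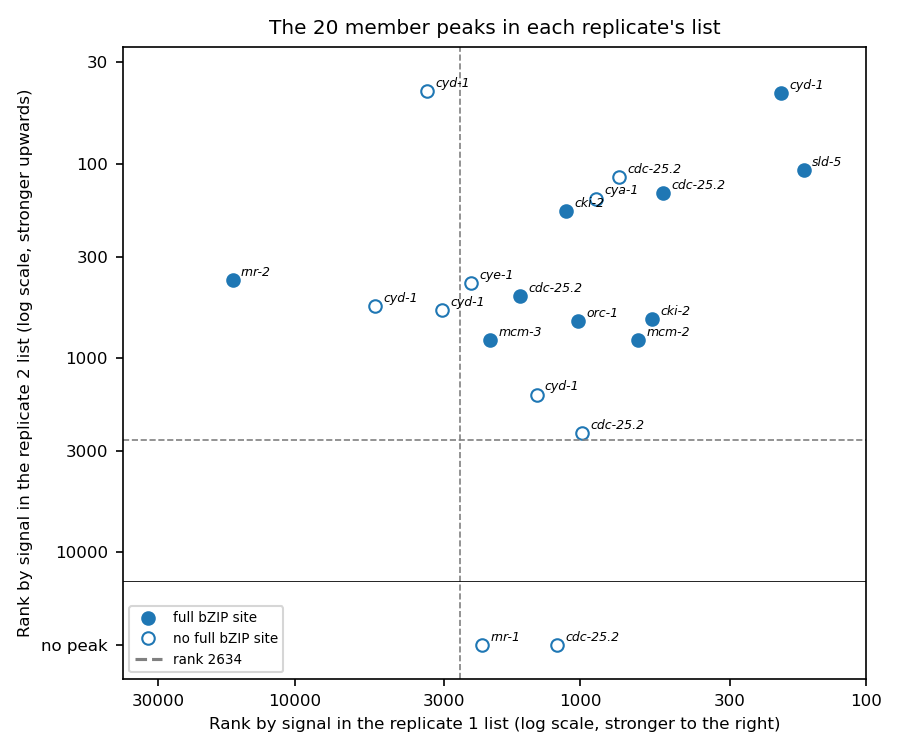
Rank by signal of the 20 member peaks in the list of replicate 1 (x axis) and replicate 2 (y axis), both on log scales with stronger peaks to the right and upwards; dashed lines mark rank 2634. The peak upstream of cyd-1 and that of sld-5 are high in both, rnr-2 is far to the left with rank 16485 in replicate 1, and 2 peaks, of rnr-1 and cdc-25.2, have no peak in replicate 2.

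A smaller share of member peaks than of the list at large held a full site, but 10 of the 20 came from cyd-1 and cdc-25.2. The intervals treat peaks of one gene as independent. Of the 20 summits, 10 had a full site within 50 bp (50%, interval 27.2 to 72.8) against 78.7% of all optimal nuclear summits, and windows of the same width 250 bp to the side held one at 0 of 20 and at 2.76%. Such a site was present at 4 of 11 peaks in gene bodies and 6 of 9 upstream. Most of those in gene bodies belonged to cyd-1 and cdc-25.2, and those of sld-5 and cki-2 each held a site. The share of all optimal peaks by place is not given, so the contrast cannot be read as one of place. The CRE palindrome, the commonest site of the list at 39.5%, was found at 2 member peaks (10%), whereas TGATGCAA was found at 3 (15% against 1.84%) and TGACGCAA at 3 (15% against 9.46%). Without cyd-1 and cdc-25.2 a full site was present at 7 of 10 peaks (70%, interval 34.8 to 93.3, which covers the share of the list). TGATGCAA was then present at 1 of 10. Whether the share at the other members differs from that of the list was not tested.

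The core ACGCAA was chosen after the member sequences were seen, so its share at these same peaks is a description and no independent evidence. It was present, on either strand, at 13 of 20 member peaks (65%, interval 40.8 to 84.6) against 25.5% of all optimal peaks. In side windows it was present at 5% and 3.83%. The intervals treat peaks of one gene as independent. Of those 13 peaks, 8 belonged to cyd-1 and cdc-25.2, and without these genes the core was present at 5 of 10 (50%, interval 18.7 to 81.3, which covers the share of the list). TGACGCAA contains it, so the measures overlap. Among peaks without a full site it occurred at 7 of 10 member peaks and at 58.5% of the 556 others of that kind in the list, member peaks included, and its form of 8 bases, TTACGCAA, at 4 of 10 and at 50.7%. Side windows of those 556 held TTACGCAA in 0.36%. With TTACGCAA added to the 6 sequences, 14 of 20 member peaks (70%) and 89.5% of all held a site. The base composition also differed: GC content within 50 bp of the summit was 45.7% ± 6.01 (SD, n = 20 peaks) at members and 38.5% ± 8.04 (SD, n = 2610 peaks) over the list. Its part in the counts of sites was not tested.

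Replication genes are known targets of E2F factors, and the E2F sequences TTTCGCGC, TTTGGCGC and TTTCCCGC were searched on both strands from 250 bp upstream to 50 bp downstream of each gene start. They occurred at 13 of the 44 genes (29.5%) against 3.56% of all protein-coding genes. Of those 13, 5 had an optimal peak (cyd-1, cdc-25.2, orc-1, mcm-3 and rnr-2), as did 6 of the other 31. At the peaks themselves an E2F sequence lay within 50 bp of 1 summit, that of mcm-3, against 1.72% of all optimal summits. In the same promoter window a full bZIP site was present at 3 genes (6.82% against 4.86%), mcm-3, rnr-2 and bub-1. The rnr-2 match is not the TGATGCAA at its peak, which lies more than 250 bp upstream.

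By chromosome, counts of members with an optimal peak ran from 0 to 4, too few to set chromosomes apart. They were 4 of 9 on chromosome III, where 14.1% of all genes had one, 3 of 7 on V (9.87%), 3 of 11 on II (9.97%) and 1 of 13 on I (15.4%), which was cye-1. None of the 3 members on chromosome IV or the 1 on X had one.

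A wider list held 167 further symbols of the cell cycle, DNA replication and related families. It includes further CDKs and cyclins whatever their role, so not all are cell cycle genes. Of these symbols, 158 were matched in the annotation, and their share was near that of all genes. An optimal peak was linked to 20 of them (12.7%, interval 7.91 to 18.9, against 11.6%). The strongest lay in an intron of efl-3, a gene of the atypical E2F type, with a signal of 167, and at mdf-2, the Mad2 gene of the spindle checkpoint, with 87.1. Genes of DNA synthesis with a peak were pole-1, for DNA polymerase epsilon, with 71.9, crn-1, a FEN1-type nuclease gene, with 57.3, clsp-1, for claspin, with 37, and pola-1, for DNA polymerase alpha, with 34.8. The cohesin genes coh-1 and evl-14 had 68.2 and 52.9, the checkpoint kinase gene atm-1 had 53.3, and the Rb and E2F partners efl-2 and lin-54 had 45.2 and 40.2. The peaks of pole-1, crn-1, coh-1 and lin-54 held no full site. For 5 of the named genes another gene start was nearer to the summit: fdgt-2 for efl-3, mtd-1 for pole-1, Y48G1BL.7 for atm-1, rpl-12 for lin-54 and Y47D3A.1 for pola-1. By group the share ran from 3 of 10 for DREAM and Rb partners and 3 of 13 for origin licensing and firing to 1 of 20 for both the anaphase-promoting complex with SCF and the centrosome genes.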

How the data were processed

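The deposited data are lists of peaks with, per the file headers, unthresholded lists for each replicate and for the pooled alignments, each made with a control file, and an optimal list derived from them by irreproducible discovery rate (IDR). The signal of a peak is the authors' deposited value. No aligner, caller, filter or IDR threshold was stated in the sources used here. The lists hold no read counts, so depth is unknown, and the control was not analysed here.

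The ce11 lists were joined to the WBcel235 genome and its annotation from Ensembl release 115, and no peak ended beyond its chromosome. Lists on ce10 were not used. Coordinates are 1-based. A gene's ends and starts are those of the annotation. Replicate peaks overlapping an optimal peak by at least 1 bp counted as support, and the one of highest signal gave its rank. Side windows lay alternately to the left and right. Tools were Python 3.11.15, numpy 2.4.6, scipy 1.17.1 for exact intervals and matplotlib 3.10.9. The linking and the motif search were tested on simulated data.

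The members and lists were chosen with earlier results of these data known, the 6 full sites came from an earlier analysis of them, and the core ACGCAA and TTACGCAA were chosen after the member sequences were seen. All 44 members are named, and of the wider list at most the 15 of highest signal. Where the start of another gene, at its outer end, is nearer to an optimal summit than that of the named gene, it is named too. For pooled peaks below the optimal list such genes are not named, and another start can be nearer.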

Additional observations from a re-analysis of the deposited data

How the results depend on the processing

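Of the alternatives to the 5 main counts, 20 stayed within 1.5 times of the count as reported and 7 did not. Assignment to the nearest start gave 6 members with an optimal peak in place of 11. The 20 optimal peaks linked to members became 9 with upstream summits alone, 8 with transcript promoters, 9 with the nearest start and 12 at or above the median signal. Members with a pooled peak fell from 38 to 25 among the 10000 pooled peaks of highest signal. The share of all genes at that cut is not given, so the fall cannot be read as particular to members. With the CRE and C/EBP palindromes alone, 3 of 20 member peaks held a site in place of 10. TTACGCAA, an alternative added after seeing the data, raised that count to 14. With the top peaks of one replicate in place of the optimal list, 12 to 16 members and 19 to 30 peaks were linked. For roles, counts of 0 to 6 genes limit every comparison. No paired analysis was possible because the replicates form 1 group and no test was made. Depth is unknown, and with 2 replicates a weak peak absent from one list cannot be told from one missed there.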
